A study of Oryza sativa with 30 samples.

Results

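The comparison described here asks what differed in irradiated rice leaves when a mutation of ATM was added to a line labelled as overexpressing TOP6A3. It rested on 2 of the 30 RNA-seq libraries of the study, TOP6A3-OE1 atm-2 and TOP6A3-OE1, each irradiated at 40 Gy. The deposited 40 Gy table gave 40718 genes in FPKM, here reads divided by gene length in kilobases and by a size factor of the library. That factor did not follow the read total of the library. Of these genes, 14397 reached 5 FPKM in at least 1 of the pair and were measured, and the other 26321 were not. The last gene inside that floor was Os06g0109400, with 4.51 FPKM in TOP6A3-OE1 atm-2 and a value at the floor in TOP6A3-OE1. The first outside it was Os02g0762100, just under the floor in TOP6A3-OE1 atm-2 and at 2.10 FPKM in TOP6A3-OE1.

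ATM is a protein kinase that is activated by DNA double-strand breaks. In Arabidopsis it acts on the transcription factor SOG1, which switches on genes for checkpoint control, recombination and nucleotide supply. TOP6A3 belongs to the A subunits of DNA topoisomerase VI, relatives of the meiotic protein SPO11, and its partner is TOP6B. Topoisomerase VI is known in Arabidopsis for its part in endoreduplication and cell growth.

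Seedlings of all groups were 14 days old, had been kept on MS medium of 0.5 strength at 26 °C with days of 13 h and nights of 11 h, and were given 60Co gamma rays at 1 Gy per minute where irradiated, and leaves were taken 6 h later. TOP6A3-OE1 atm-2 is labelled as the overexpression line with an added mutation, and TOP6A3-OE1 as the overexpression line alone, with 1 library of each. The same table held DJ, labelled wild type, and the ku70 mutant at 40 Gy, with 2 libraries each, and a second table held untreated libraries of both, of which the 2 of DJ are used here. The library sizes behind the FPKM values lay between 0.998 and 1.02 times those of median-of-ratios scaling over the 10 libraries of these 2 tables. With each table scaled alone they lay between 0.849 and 1.17 times those. Levels are therefore set side by side across them, but this check covers scaling only and not other differences between libraries. Chloroplast-encoded transcripts summed to 40.0 and 55.1 FPKM in the pair, against 1304 and 1630 FPKM in DJ at 40 Gy. The part of such differences in the DJ levels and noise scale was not tested. A separate set of libraries held the mutant atm-1 and its wild type, labelled ATM, with 3 libraries each at 70 Gy and 3 each untreated. That set also held the atr mutant (1 library at 70 Gy, 1 untreated), untreated top6a3 mutants (3 libraries) and their wild type TOP6A3 (1), and atm-1 and ATM kept at 4 °C for 24 h (1 library each), which entered the model only to estimate the spread and to filter genes. Untreated libraries of TOP6A3-OE1 and of TOP6A3-OE1 atm-2, and an atm-2 line without the overexpression, were not analysed here. The labels give neither the promoter of the overexpression nor the number of plants behind a library. With 1 library a side, differences due to ATM, to the line, to the plants and to the library cannot be told apart, and no p-value was computed for the pair.

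The transcripts named in the line labels did not separate the pair. ATM was listed at 5.75 FPKM (655 reads) in the library labelled TOP6A3-OE1 atm-2 and at 3.35 FPKM (473 reads) in TOP6A3-OE1, against 1.72 and 2.98 FPKM in DJ at 40 Gy. The transcript level therefore gives no check of the atm-2 label, since a mutation need not change the amount of RNA. TOP6A3 was at 3.97 FPKM in TOP6A3-OE1 atm-2, 4.49 FPKM in TOP6A3-OE1, and 4.17 and 2.32 FPKM in DJ, so the overexpression named in the labels did not show in the counted transcript. TOP6B was at 8.58 FPKM in TOP6A3-OE1 atm-2 and 11.3 FPKM in TOP6A3-OE1.

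The depth was similar within the pair, at 16477147 reads in TOP6A3-OE1 atm-2 and 15470107 reads in TOP6A3-OE1, but the make-up of the libraries differed. In TOP6A3-OE1 atm-2 26228 genes were detected, 20.8% of them with only 1 to 10 reads. In TOP6A3-OE1 22916 genes were detected, 5.80% of them with 1 to 10 reads, and in DJ the share was 1.22% and 2.45%. The 100 highest genes took 35.5% of summed FPKM in TOP6A3-OE1 atm-2 and 22.6% in TOP6A3-OE1, against 24.9% and 24.5% in DJ at 40 Gy and 34.5% and 35.2% in untreated DJ. Of the measured genes, 67 were listed at 0 in TOP6A3-OE1 atm-2 and 90 in TOP6A3-OE1, against 1342 and 1298 in DJ. Genes were measured through the pair, so more zeros in DJ follow at least in part from the floor. The part of these differences in the results was not tested.

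The spread between the DJ replicates at 40 Gy served as the noise scale. A gene was past the limit when its log2(FPKM + 1) differed by at least 1 and by more than the 95th percentile of the replicate difference among DJ genes of like level. The limit was 4.07 for the lowest genes and lay between 1.42 and 1.52 for the highest, so a weakly expressed gene had to differ far more than a strong one. By this rule 659 genes (4.58%) were higher and 409 genes (2.84%) lower in TOP6A3-OE1 atm-2, in all 1068 genes (7.42%). The rule itself lets about 5% of genes past between the DJ replicates, so most of the total is of a size that replicates also gave. Of the genes also measured in the pair, 211 of 12028 were higher and 364 lower in DJ replicate 1 than in replicate 2. By the same limit 675 of 11860 were higher and 618 lower in ku70. Replicate counts of the lists below have these counts as their background, not the shares of the pair. Without the limit, 27.7% of genes differed by 1 or more in the pair, against 31.8% of 14631 genes between the DJ replicates and 46.4% of 15007 genes between the ku70 replicates. The median absolute difference was 0.55 in the pair, 0.62 in DJ and 0.90 in ku70. Across genes the pair was thus no further apart than replicates of 1 line, and what follows concerns which genes stood apart.

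**Figure D1:**
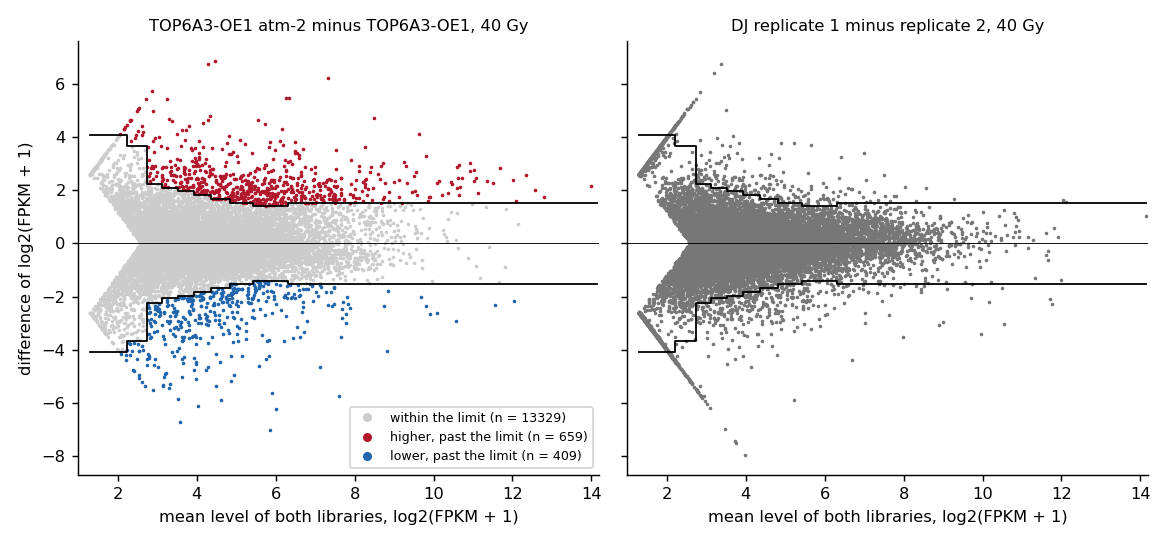
Difference of log2(FPKM + 1) against the mean level of both libraries, for TOP6A3-OE1 atm-2 minus TOP6A3-OE1 (left) and for DJ replicate 1 minus replicate 2 (right), 1 point per gene; black lines mark the limit. In the pair 659 genes lie above and 409 below the limit, and the higher ones extend to the highest levels.

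Single transcripts for nucleotide supply, DNA end processing and the replication clamp were lower in TOP6A3-OE1 atm-2. Foremost were ST1 and RNRS2, both small subunits of ribonucleotide reductase, the enzyme that makes deoxynucleotides for DNA synthesis. They differed by -4.95 and -4.09 on the log2(FPKM + 1) scale, and both were past the limit, also with the ku70 replicates as noise and at the 99th percentile. Of 169 genes listed for DNA damage response and repair, 72 were measured, 3 were lower (4.17%) and 2 higher (2.78%) past the limit, and the list's median difference was -0.34, against 0.02 over all genes. All genes had 2.84% lower and 4.58% higher. With the ku70 replicates as noise the list had 2 lower and 1 higher, and at the 99th percentile 2 lower and 0 higher. Genes entered these counts through the pair itself. ST1 and RNRS2 reached 5 FPKM only in TOP6A3-OE1, so they had to be below 0. A floor of 5 FPKM in either DJ library at 40 Gy, chosen after seeing the data, left 69 members. Past the limit 2 were lower and 2 higher, beside 2.29% and 3.81% of the 13822 genes also tested at 70 Gy. The list's median was then -0.08, against 0.00 over those genes.

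ST1 (Os06g0257450, chromosome 6, 8230555 to 8232480) was at 4.51 FPKM in TOP6A3-OE1 atm-2 and 169 FPKM in TOP6A3-OE1. DJ at 40 Gy had 48.9 and 66.2 FPKM, and untreated DJ had 3.00 and 0 FPKM. The ku70 mutant, changed in a gene of DNA end joining, had 697 and 661 FPKM at 40 Gy. TOP6A3-OE1 atm-2 was thus below every DJ library at 40 Gy and near the untreated ones, while TOP6A3-OE1 was above DJ and below ku70. RNRS2 (Os06g0127900, chromosome 6, 1470865 to 1472378) was at 1.49 FPKM (35 reads) in TOP6A3-OE1 atm-2 and 41.4 FPKM (1208 reads) in TOP6A3-OE1. In DJ it was listed at 0 and 1.34 FPKM at 40 Gy and at 0 in both untreated libraries, so for RNRS2 the irradiated wild type was as low as TOP6A3-OE1 atm-2. The third measured gene of nucleotide supply, V3, named after its values were seen, had 1.45 FPKM in TOP6A3-OE1 atm-2 and 8.23 FPKM in TOP6A3-OE1, within the limit. Coordinates are those of the deposited table, whose genome build is not given in the sources used here.

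Of the strand repair genes described next, 1 was past the limit. Os01g0881400 (chromosome 1, 38257939 to 38261435), annotated as similar to artemis, a nuclease that trims DNA ends in animals, was at 5.56 FPKM in TOP6A3-OE1 atm-2 and 28.1 FPKM in TOP6A3-OE1. Its difference of -2.15 was past the limit of 1.98, but within the limits of 2.34 from the ku70 replicates and 3.26 at the 99th percentile. DJ had 27.3 and 33.8 FPKM at 40 Gy and 5.19 and 2.69 FPKM untreated. RAD51A2 (Os12g0497300, chromosome 12, 18876115 to 18879035), a recombinase of homologous recombination, had 0.198 FPKM (4 reads) in TOP6A3-OE1 atm-2 and 14.4 FPKM (362 reads) in TOP6A3-OE1. In DJ it had 4.97 and 9.36 FPKM at 40 Gy and was listed at 0 untreated. The difference of -3.69 did not reach the limit of 4.07 for genes of that level, although TOP6A3-OE1 atm-2 lay below both DJ libraries at 40 Gy. PARP2A (Os01g0351200), which lies on chromosome 1 from 14047844 to 14054909 and codes for an enzyme that marks broken DNA with ADP-ribose chains, had 0.944 FPKM in TOP6A3-OE1 atm-2 and 18.1 FPKM in TOP6A3-OE1, against 10.6 and 9.19 FPKM in DJ at 40 Gy. Its difference of -3.29 was within the limit of 3.65. OsMSH5 (Os05g0498300), a MutS homolog known from meiotic crossing over, had 0.131 FPKM (6 reads) in TOP6A3-OE1 atm-2 and 7.92 FPKM (451 reads) in TOP6A3-OE1, also within its limit.

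Read by role, nucleotide supply held 2 lower genes among 3 measured, and excision and mismatch repair held 1 lower and 2 higher among 39. The 1 lower gene was the artemis-like Os01g0881400, which the list counted there and not under end joining. None of 17 measured genes of homologous recombination, 3 of end joining, 3 checkpoint genes and 6 of replication protein A and chromatin passed the limit, with medians of -0.58, -0.53, -0.03 and -0.57. These counts and medians use the pair's own floor, which took in some genes, such as RAD51A2, only through TOP6A3-OE1. ST1, RNRS2, V3, PARP2A and OsMSH5 also reached 5 FPKM only there, which fixed their direction. One of the 2 higher genes was Os09g0532700, whose annotation joins a DNA photolyase domain with a hydrolase domain. It had 65.2 FPKM in TOP6A3-OE1 atm-2 and 14.1 FPKM in TOP6A3-OE1, with 15.4 and 18.6 FPKM in DJ at 40 Gy, and was within the limit at the 99th percentile.

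The sliding clamp OsPCNA (Os02g0805200, chromosome 2, 34351407 to 34353530), which holds DNA polymerases on their template, was the only one of 19 measured replication and cell cycle genes past the limit. It had 7.21 FPKM in TOP6A3-OE1 atm-2 and 34.6 FPKM in TOP6A3-OE1, and 18.6 and 29.3 FPKM in DJ at 40 Gy. The difference of -2.12 exceeded the limit of 1.81, while the list's median was 0.23. It was within the limits of 2.14 from the ku70 replicates and 2.68 at the 99th percentile, and with either no gene of the list was past it. ONAC050 (Os02g0594800), a NAC transcription factor annotated as similar to Arabidopsis ANAC008, the SOG1 factor, had 0.803 FPKM (23 reads) in TOP6A3-OE1 atm-2 and 9.03 FPKM (321 reads) in TOP6A3-OE1. DJ had 7.14 and 13.0 FPKM at 40 Gy and was listed at 0 untreated, and the difference of -2.48 was within the limit. ONAC050 reached 5 FPKM only in TOP6A3-OE1, so it had to be below 0. Core and linker histones, which are made in S phase, had no gene past the limit among 34 measured, and 26 of them were below 0, with a median of -0.49.

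**Figure D2:**
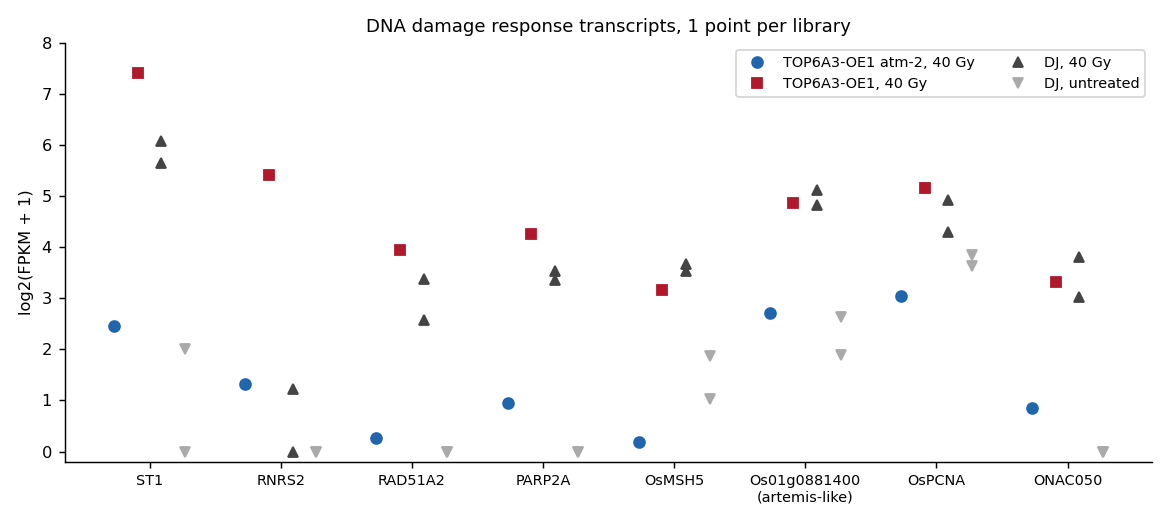
Levels, log2(FPKM + 1), of 8 DNA damage response transcripts, 1 point per library, for TOP6A3-OE1 atm-2, TOP6A3-OE1 and DJ at 40 Gy and for untreated DJ. TOP6A3-OE1 atm-2 lies below TOP6A3-OE1 for each gene and near the untreated DJ libraries for most of them. The 8 genes are a choice from the named genes. ST1, RNRS2, RAD51A2, PARP2A, OsMSH5 and ONAC050 reached 5 FPKM only in TOP6A3-OE1, so they had to lie below it in TOP6A3-OE1 atm-2. ST1 reads 4.51 FPKM against 169 FPKM.

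The lines atm-1 and ATM at 70 Gy gave a comparison with replicates, in libraries that the 40 Gy pair does not contain. The allele, the dose and the line all differed from the pair, so values of the sets are compared only within each. Whether the sets were scaled together is not given in the sources used here. Over the 30 libraries of both, the library sizes behind the FPKM values lay between 0.950 and 1.09 times those of median-of-ratios scaling. With limma on log2(FPKM + 1), 81 of 24582 genes (0.330%) were lower and none higher in atm-1 than in ATM at an adjusted p under 0.05. At an unadjusted p under 0.05, 640 were lower and 589 higher. Without irradiation 0 genes were called between atm-1 and ATM, with 1330 at an unadjusted p under 0.05. Calls rested partly on single libraries: leaving out 1 of the 70 Gy libraries at a time gave 54 to 98 calls, and leaving out atm-1 untreated replicate 1 gave 180, of which 137 were lower and 43 higher. That library had 18464 genes detected, 1.53% with 1 to 10 reads, against 25029 and 24843 genes, 20.3% and 20.2%, in replicates 2 and 3. ATM replicate 3 at 70 Gy had 19180 genes and 1.70%, against 25445 and 25161 genes, 18.2% and 17.6%, in replicates 1 and 2. The part of this in the calls was not tested.

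Of those 81 genes, 79 were in the 40 Gy table. The floor of the pair bears on their direction: 56 reached 5 FPKM in at least 1 of its libraries, 25 of them in both, 31 only in TOP6A3-OE1 and 0 only in TOP6A3-OE1 atm-2, and those 31 had to be below 0. They were therefore described with a floor that does not use the pair, 5 FPKM in either DJ library at 40 Gy, chosen after seeing the data. Of 51 genes past that floor, 49 (96.1%) were below 0 in TOP6A3-OE1 atm-2 minus TOP6A3-OE1, against 48.0% of 13822 genes. A difference of -1 or less was seen for 37 (72.5%), against 9.69%, and 12 were lower (23.5%) and 0 higher past the limit, against 2.29% and 3.81%. Their median difference was -1.62, against 0.00.

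At the pair's own floor 13 of the 56 were lower and 0 higher past the limit, against 2.70% and 4.66% of the 13780 genes measured in both tables, and the differences ranged from -5.05 to 0.41. The number lower past the limit fell to between 7 and 11 when the 81 genes were called again without 1 of the 70 Gy libraries, and it was 18 without atm-1 untreated replicate 1. The 2 of the 56 above 0 were OsSGL (Os02g0134200), at 221 FPKM in TOP6A3-OE1 atm-2 and 176 FPKM in TOP6A3-OE1, and OsCBSCBSPB3 (Os01g0961200), at 8.09 FPKM in TOP6A3-OE1 atm-2 and 5.83 FPKM in TOP6A3-OE1. Both were named after their values were seen.

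Genes that answered radiation in the wild type ATM line were followed into the 40 Gy pair, a choice made after seeing the data. With limma, 106 of 24582 genes (0.431%) were higher and 23 (0.0936%) lower in ATM at 70 Gy than in untreated ATM at an adjusted p under 0.05. That contrast joins 2 deposited tables, and the library sizes behind their FPKM values lay between 0.988 and 1.10 times those of median-of-ratios scaling over the 20 libraries together, and between 0.765 and 1.14 times those with each table scaled alone. Of the 106 genes, 69 were measured in the pair, 31 of them only through TOP6A3-OE1 and 1 only through TOP6A3-OE1 atm-2. With the floor set on DJ instead, 66 were described: 57 (86.4%) were below 0 in TOP6A3-OE1 atm-2 minus TOP6A3-OE1, 12 were lower (18.2%) and 0 higher past the limit, and the median difference was -1.18, beside the shares over 13822 genes given above. Of the 23 genes lower after irradiation 14 passed the DJ floor, 0 were past the limit in either direction, and their median was 0.14. The ATM libraries at 70 Gy enter both this selection and that of the 81 genes lower in atm-1, so these selections are not independent of each other.

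ST1 averaged 44.0 ± 3.79 FPKM in atm-1 and 1605 ± 704 FPKM in ATM at 70 Gy (SD, n = 3 each), a limma difference of -5.04 (SE 0.33, adjusted p = 1.12e-05). The 40 Gy pair differed by -4.95 for the same gene. RNRS2 averaged 6.95 ± 2.50 FPKM in atm-1 and 230 ± 144 FPKM in ATM, with a limma difference of -4.58 and an adjusted p of 0.0162, beside -4.09 in the 40 Gy pair. RAD51A2 averaged 0.610 ± 0.373 FPKM in atm-1 and 45.6 ± 13.7 FPKM in ATM (limma adjusted p = 0.000465), and PARP2A 1.53 ± 0.507 FPKM in atm-1 and 78.8 ± 38.8 FPKM in ATM (limma adjusted p = 0.000118). In the 40 Gy pair both were lower in TOP6A3-OE1 atm-2 by an amount within the limit. OsPCNA averaged 15.9 ± 2.36 FPKM in atm-1 and 107 ± 40.0 FPKM in ATM, a limma difference of -2.62 (adjusted p = 0.00104), beside -2.12 in the 40 Gy pair. Among the ATM libraries at 70 Gy, each gene of this paragraph was lowest in replicate 3. There ST1 had 795 FPKM, against 2067 and 1953 FPKM in replicates 1 and 2, and RNRS2 63.4 FPKM, against 300 and 325 FPKM.

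Several of the genes that fell most in atm-1 have no role given in the files. Os01g0843700 (chromosome 1, 36232930 to 36233540) was listed at 0 in TOP6A3-OE1 atm-2 and had 32.2 FPKM (379 reads) in TOP6A3-OE1, and DJ at 40 Gy had 23.0 and 12.6 FPKM. Os01g0959750 (chromosome 1, 42301803 to 42302292) had 2.89 FPKM in TOP6A3-OE1 atm-2 and 95.2 FPKM in TOP6A3-OE1, below the 222 and 341 FPKM of DJ. Both were past the limit, the first only with the DJ limit and not with that of the ku70 replicates or at the 99th percentile. Os09g0442400 (chromosome 9, 16444342 to 16447967), annotated as similar to GAMETE EXPRESSED 1 of Arabidopsis, had 3.32 FPKM in TOP6A3-OE1 atm-2 and 32.7 FPKM in TOP6A3-OE1, with 12.4 and 17.0 FPKM in DJ, and was within the limit at the 99th percentile only. At 70 Gy it averaged 2.81 ± 0.938 FPKM in atm-1 and 153 ± 24.5 FPKM in ATM. Os04g0403400, which carries HIRAN and tyrosyl-DNA phosphodiesterase domains, had 1.02 FPKM in TOP6A3-OE1 atm-2 and 12.4 FPKM in TOP6A3-OE1, within the limit. Each gene of this paragraph reached 5 FPKM only in TOP6A3-OE1, so it had to be below 0.

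**Figure D3:**
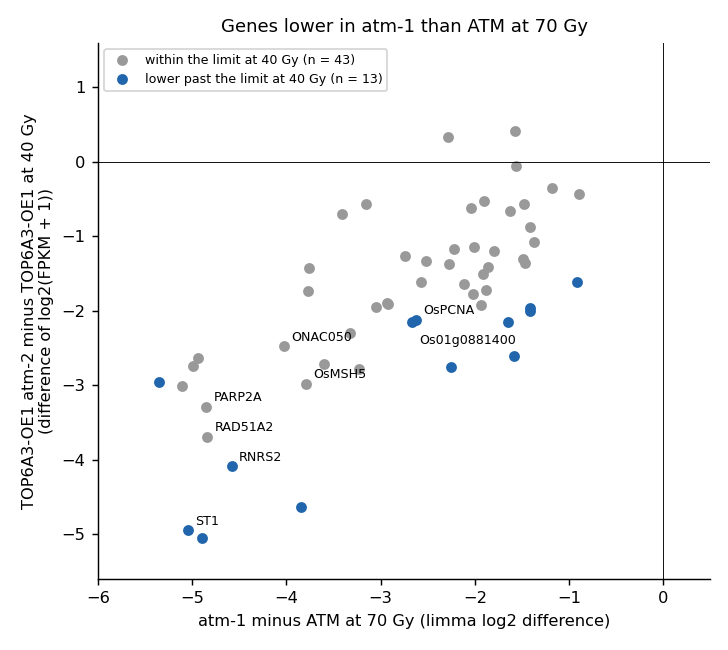
The 56 measured genes that limma called lower in atm-1 than in ATM at 70 Gy: limma log2 difference at 70 Gy (horizontal) against the difference of log2(FPKM + 1) between TOP6A3-OE1 atm-2 and TOP6A3-OE1 at 40 Gy (vertical). The 31 genes that reached 5 FPKM only in TOP6A3-OE1 lie below 0 by the choice of the floor; 13 of the 56, among them ST1 and RNRS2, were past the limit.

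Photosynthesis genes were higher in TOP6A3-OE1 atm-2. Past the limit were 13 of 22 measured light-harvesting genes, 26 of 57 genes of the photosystems and electron transport, 10 of 19 of the Calvin cycle and 10 of 22 of chlorophyll synthesis, against 4.58% of all genes. Only 1 member of these lists was lower past the limit. The median differences were 1.98, 1.41, 1.73 and 1.67 in that order, and between the DJ replicates they were 0.03, -0.20, -0.20 and -0.23. Those medians of the pair use its own floor. With the floor set on DJ they were 1.83, 1.43, 1.66 and 0.93, against 0.00 over 13822 genes. Members higher past the limit were then 13 of 24, 24 of 51, 10 of 18 and 9 of 19, against 3.81%. With no filter on low values the medians were 1.83, 0.86, 1.42 and 0.91. Between replicates 1 and 2 of DJ, 2 of 24 light-harvesting genes were higher and 3 lower past the limit. Photosystems had 0 higher and 1 lower of 51, the Calvin cycle 0 and 1 of 18, and chlorophyll synthesis 0 and 1 of 19. Between the ku70 replicates these were 3 and 1 of 23, 5 and 1 of 50, 0 and 0 of 17, and 0 and 0 of 22. Over all genes they were 211 and 364 of 12028 in DJ, and 675 and 618 of 11860 in ku70. At the 99th percentile limit 10, 9, 6 and 6 members were higher.

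Summed over its 22 measured genes, light harvesting reached 69378 FPKM in TOP6A3-OE1 atm-2 and 13767 FPKM in TOP6A3-OE1. DJ at 40 Gy had 17466 and 13469 FPKM and ku70 11753 and 9230 FPKM, so by this sum TOP6A3-OE1 was within the range of the other irradiated libraries and TOP6A3-OE1 atm-2 far above it. The list's median level, log2(FPKM + 1), was 9.99 in TOP6A3-OE1 atm-2 and 6.52 in TOP6A3-OE1, against 7.70 and 8.67 in DJ and 7.66 and 7.57 in ku70 at 40 Gy, and 10.05 and 9.57 in untreated DJ. By the median, TOP6A3-OE1 was below and TOP6A3-OE1 atm-2 above all 4 other irradiated libraries. Summed FPKM for the Calvin cycle were 28613 in TOP6A3-OE1 atm-2 and 9770 in TOP6A3-OE1, and 8160 and 10298 in DJ at 40 Gy. For chlorophyll synthesis they were 3751 in TOP6A3-OE1 atm-2 and 894 in TOP6A3-OE1, and 547 and 655 in DJ.

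Among the antenna proteins, which bind chlorophyll and pass light energy on, CAB2R (Os01g0600900) had 8787 FPKM in TOP6A3-OE1 atm-2 and 1235 FPKM in TOP6A3-OE1, while DJ had 77.4 and 506 FPKM at 40 Gy and 4541 and 1414 FPKM untreated. Lhcb1.1 (Os01g0720500) had 1369 FPKM in TOP6A3-OE1 atm-2 and 17.5 FPKM in TOP6A3-OE1, with 1.41 and 32.0 FPKM in DJ. Both genes are annotated by the same antenna protein, and how reads of such near copies were shared is not given in the sources used here, so the value of each single gene is uncertain. PSBS1 (Os01g0869800), which serves the harmless release of excess light energy, had 755 FPKM in TOP6A3-OE1 atm-2 and 99.9 FPKM in TOP6A3-OE1. Here DJ at 40 Gy had 1918 and 1182 FPKM, above both.

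In the photosystems, PsaL (Os12g0420400), a subunit of photosystem I, had 2832 FPKM in TOP6A3-OE1 atm-2 and 286 FPKM in TOP6A3-OE1, with 322 and 325 FPKM in DJ at 40 Gy. PsbR (Os07g0147500), a small protein of photosystem II, had 1770 FPKM in TOP6A3-OE1 atm-2 and 209 FPKM in TOP6A3-OE1, and its neighbour OsPsbR2 (Os07g0147550) had 1.72 FPKM in TOP6A3-OE1 atm-2 and 91.8 FPKM in TOP6A3-OE1. OsPsbR2 was the single member lower past the limit, and it reached 5 FPKM only in TOP6A3-OE1, which fixed its direction. The pair carry the same annotation, both were listed at 0 in both DJ libraries at 40 Gy, and their reads cannot be assigned with certainty.

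The Calvin cycle, which fixes carbon dioxide, was led by OsPrk (Os02g0698000), the phosphoribulokinase. OsPrk had 313 FPKM in TOP6A3-OE1 atm-2 and 15.0 FPKM in TOP6A3-OE1, with 26.6 and 59.7 FPKM in DJ at 40 Gy and 86.8 and 88.1 FPKM untreated. OsPGK3 (Os05g0496200), a phosphoglycerate kinase, had 480 FPKM in TOP6A3-OE1 atm-2 and 68.8 FPKM in TOP6A3-OE1, and 61.1 and 86.0 FPKM in DJ. In chlorophyll synthesis, OsCRD1 (Os01g0279100), which forms the isocyclic ring of the pigment, had 1215 FPKM in TOP6A3-OE1 atm-2 and 147 FPKM in TOP6A3-OE1, against 83.6 and 98.5 FPKM in DJ. OsChlH (Os03g0323200), the subunit of magnesium chelatase that carries the porphyrin, had 317 FPKM in TOP6A3-OE1 atm-2 and 49.6 FPKM in TOP6A3-OE1, against 17.5 and 38.0 FPKM in DJ. GUN4 (Os11g0267000), which stimulates that enzyme, had 142 FPKM in TOP6A3-OE1 atm-2 and 21.2 FPKM in TOP6A3-OE1, against 32.6 and 38.5 FPKM in DJ. For these 5 genes TOP6A3-OE1 atm-2 stood above both DJ libraries at 40 Gy.

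The comparison at 70 Gy did not show this. None of the genes of the 4 lists was called higher or lower in atm-1 than in ATM by limma, with medians of 0.25, 0.24, 0.27 and 0.43 for light harvesting, photosystems, Calvin cycle and chlorophyll synthesis. Without irradiation the medians were -0.47, -0.69, -0.64 and -0.73. OsPrk averaged 236 ± 34.3 FPKM in atm-1 and 147 ± 90.2 FPKM in ATM at 70 Gy (SD, n = 3 each, limma adjusted p = 0.908). Whether the photosynthesis difference differs between the lines was not tested, since the pair has no replicates.

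The authors deposited a list of 106 genes for this pair, with log2 fold changes that run the other way, TOP6A3-OE1 over TOP6A3-OE1 atm-2. Of the 106 in the authors' deposited table, 85 were below 0, with a median of -1.69, and 86 of the 106 had the matching direction in the FPKM values. On the scale used here 100 of them were measured, 54 were higher and 0 lower past the limit, and 86 of the 106 were on the 4 photosynthesis lists. That selection was made on these same libraries and is not independent evidence.

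Genes of the epidermis and cuticle, the waxy outer layer of the leaf, were lower in TOP6A3-OE1 atm-2. The DJ replicates differed among themselves as much, while the ku70 replicates did not. In the pair 24 of 51 measured members (47.1%) were lower and 1 was higher, and the median was -1.53. Between DJ replicates 1 and 2, 18 of 53 were lower and 1 was higher by the same limit, and the median was -1.78. Between the ku70 replicates 3 of 56 were lower and 6 higher, and the median was -0.04. With the ku70 replicates as noise 21 of the 51 were lower in the pair, and at the 99th percentile 14. With the floor set on DJ, 22 of 53 were lower and 1 higher, and the median was -1.30. Summed FPKM were 7702 in TOP6A3-OE1 atm-2 and 28694 in TOP6A3-OE1, against 8775 and 24923 in the DJ replicates and 21977 and 21516 in ku70 at 40 Gy. The lipid transfer protein OsLTPd5 (Os01g0849000) had 7.52 FPKM in TOP6A3-OE1 atm-2 and 425 FPKM in TOP6A3-OE1, and 74.1 and 849 FPKM in DJ. OsGL1-2 (Os02g0178800), of the wax-forming GL1 family, had 0.580 FPKM in TOP6A3-OE1 atm-2 and 49.7 FPKM in TOP6A3-OE1, and 8.30 and 38.3 FPKM in DJ, and was within the limit of the ku70 replicates.

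Mesophyll and epidermis markers differed in the pair, and vascular markers were nearly equal. The summed mesophyll markers (24 of 29 antenna genes detected in TOP6A3-OE1 atm-2 and 22 in TOP6A3-OE1) and epidermis markers (82 of 173 detected in TOP6A3-OE1 atm-2 and 80 in TOP6A3-OE1) are largely the genes just described. Rubisco small subunit and activase genes summed to 21032 FPKM in TOP6A3-OE1 atm-2 and 8193 FPKM in TOP6A3-OE1, and ranged from 2428 to 7897 FPKM in the other 40 Gy libraries. Markers of proliferating cells summed to 3058 FPKM in TOP6A3-OE1 atm-2 and 4099 FPKM in TOP6A3-OE1, and vascular markers to 623 FPKM in TOP6A3-OE1 atm-2 and 642 FPKM in TOP6A3-OE1. Chloroplast-encoded transcripts summed to 40.0 FPKM in TOP6A3-OE1 atm-2 and 55.1 FPKM in TOP6A3-OE1, against 1304 and 1630 FPKM in DJ and 1098 and 1375 FPKM in ku70 at 40 Gy, so both libraries of the pair stood apart from the others. In whole leaves, fewer cells of a type and less RNA per cell cannot be told apart, and the part of tissue make-up in the results was not tested.

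**Figure D4:**
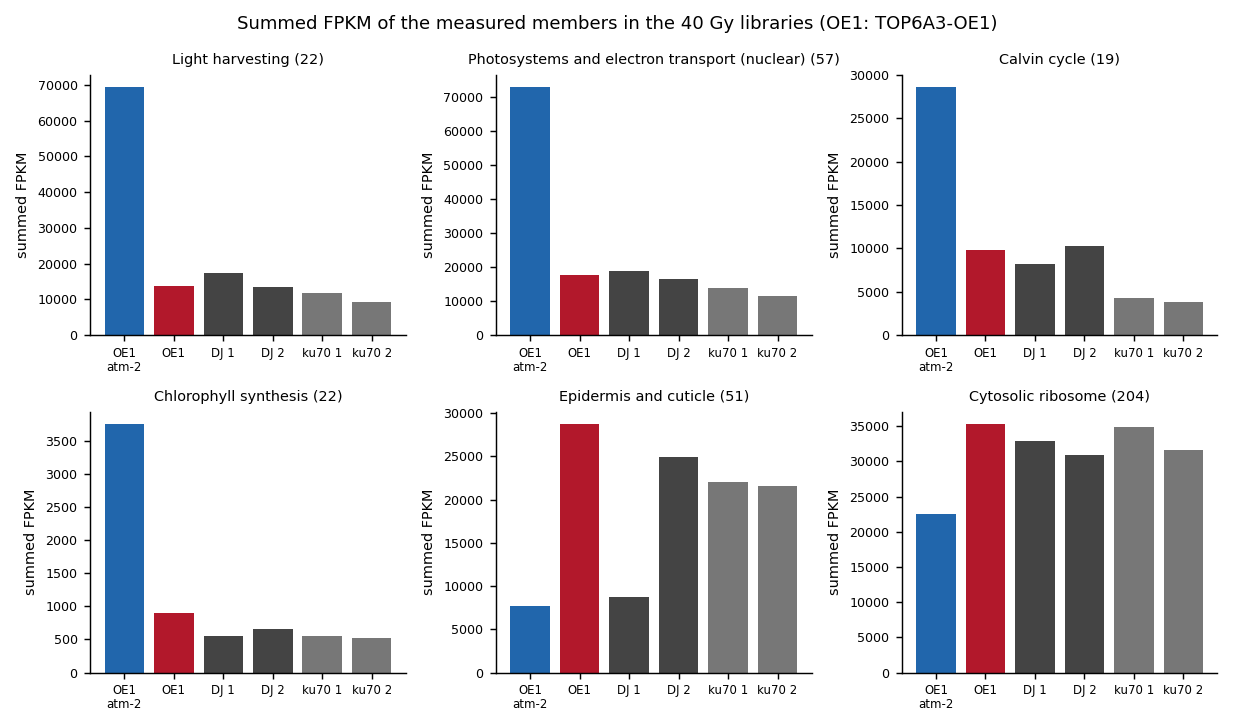
Summed FPKM of the measured members of 6 gene lists (number in brackets) in each 40 Gy library; bars start at 0 and are single libraries, and OE1 stands for TOP6A3-OE1. The 4 photosynthesis lists are highest in TOP6A3-OE1 atm-2. For epidermis and cuticle the DJ libraries (8775 and 24923 FPKM) span nearly the range of the pair (7702 and 28694 FPKM), and ku70 had 21977 and 21516 FPKM.

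Transcripts of cytosolic ribosomal proteins differed by small amounts. Of 204 measured members 189 were below 0 in TOP6A3-OE1 atm-2 minus TOP6A3-OE1, with a median of -0.64, against 0.11 between the DJ replicates and 0.18 between the ku70 replicates. Past the limit 8 were lower (3.92%) and 2 higher (0.980%), against 2.84% and 4.58% of all genes. Summed FPKM were 22513 in TOP6A3-OE1 atm-2 and 35284 in TOP6A3-OE1, and 30871 to 34950 in the 4 other libraries at 40 Gy. The median level, log2(FPKM + 1), was 6.53 in TOP6A3-OE1 atm-2 and 7.19 in TOP6A3-OE1, against 7.07 and 6.97 in DJ at 40 Gy and 6.09 and 5.89 in untreated DJ. Levels are relative within a library, and no absolute amount was measured.

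Defence and jasmonate genes included some of the largest single rises. Of 84 measured defence genes 12 were higher (14.3%) and 9 lower (10.7%) past the limit, against 4.58% and 2.84% of all genes. Between DJ replicates 1 and 2, 3 were higher and 10 lower of 84, beside 211 and 364 of 12028 genes. OsPR10a, OsPR1 and AOS2, described next, reached 5 FPKM only in TOP6A3-OE1 atm-2, so they had to be above 0. With the floor set on DJ, 5 defence genes were higher and 7 lower of 84, beside 3.81% and 2.29% of the 13822 genes also tested at 70 Gy. OsPR10a (Os12g0555500), a pathogenesis-related protein, had 201 FPKM in TOP6A3-OE1 atm-2 and 0.894 FPKM in TOP6A3-OE1, with 0 and 5.09 FPKM in DJ. OsPR1 (Os07g0129300), a marker of salicylic acid signalling, had 106 FPKM in TOP6A3-OE1 atm-2 and 2.87 FPKM in TOP6A3-OE1, with 3.16 and 0 FPKM in DJ. AOS2 (Os03g0225900), an allene oxide synthase of jasmonate synthesis, had 41.0 FPKM in TOP6A3-OE1 atm-2 and 0.316 FPKM in TOP6A3-OE1, and was listed at 0 in DJ; it was within the limits of the ku70 replicates and of the 99th percentile. The lipoxygenase gene OsLOX1 (Os02g0194700) had 49.1 FPKM in TOP6A3-OE1 atm-2 and 2.38 FPKM in TOP6A3-OE1, but 18.7 and 27.9 FPKM in DJ, so there it was TOP6A3-OE1 that stood apart. These were the 2 jasmonate genes past the limit among 28 measured (7.14% higher, against 4.58% of all genes). With the floor set on DJ, 1 of 22 was higher and 0 lower.

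Transcription factor families were split in direction. Among WRKY factors, many of which act in defence, 7 of 47 were higher and 1 lower, against 4.58% and 2.84% of all genes. Between replicates 1 and 2, 1 of 34 was higher and 0 lower in DJ, and 4 of 45 were higher and 2 lower in ku70. OsWRKY69 (Os08g0386200) had 254 FPKM in TOP6A3-OE1 atm-2 and 10.2 FPKM in TOP6A3-OE1, and WRKY45 (Os05g0322900), an activator of rice immunity, had 149 FPKM in TOP6A3-OE1 atm-2 and 18.6 FPKM in TOP6A3-OE1. DJ at 40 Gy had 12.1 and 7.93 FPKM of OsWRKY69 and 21.3 and 34.3 FPKM of WRKY45. Among ERF and DREB factors 9 of 62 were higher (14.5%) and 8 lower (12.9%). Between the replicates 0 of 50 were higher and 2 lower in DJ, and 5 of 59 were higher and 0 lower in ku70. Over all genes the replicates gave 211 higher and 364 lower of 12028 in DJ, and 675 and 618 of 11860 in ku70. With the floor set on DJ, 6 of 50 ERF and DREB factors were higher and 4 lower. Of 34 WRKY factors 7 were then higher and 1 lower, beside 3.81% and 2.29% of 13822 genes. OsERF#118 reached 5 FPKM only in TOP6A3-OE1, so it had to be below 0. OsDREB1B (Os09g0522000), a regulator of cold and drought genes, had 539 FPKM in TOP6A3-OE1 atm-2 and 11.0 FPKM in TOP6A3-OE1, with 0 and 6.30 FPKM in DJ. At 40 Gy ku70 had 66.3 and 36.1 FPKM of it, and untreated DJ had 33.2 and 6.08 FPKM. OsERF#118 (Os11g0168500) was listed at 0 in TOP6A3-OE1 atm-2 and had 36.2 FPKM in TOP6A3-OE1, with 21.2 and 4.64 FPKM in DJ, and was within the limit of the ku70 replicates.

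Among NAC factors 6 of 50 were lower and 3 higher (6.00%), against 2.84% and 4.58% of all genes. Between replicates 1 and 2, 0 of 46 were past the limit in DJ, and in ku70 3 of 55 were higher and 4 lower. With the floor set on DJ, 6 of 46 were lower and 3 higher in the pair, beside 2.29% and 3.81% of 13822 genes. ONAC085 and NAC122, described next, reached 5 FPKM only in TOP6A3-OE1, so they had to be below 0. ONAC085 (Os05g0194500) had 2.64 FPKM in TOP6A3-OE1 atm-2 and 97.0 FPKM in TOP6A3-OE1, with 14.7 and 22.4 FPKM in DJ at 40 Gy. NAC122 (Os11g0126900) had 1.75 FPKM in TOP6A3-OE1 atm-2 and 54.3 FPKM in TOP6A3-OE1, with 6.20 and 14.3 FPKM in DJ. For both genes DJ lay between the libraries of the pair.

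Stress genes differed in both directions. Among genes of protein phosphatases 2C and ABA signalling 8 of 120 were lower (6.67%) and 5 higher (4.17%), against 2.84% and 4.58% of all genes. Between replicates 1 and 2 of DJ 6 of 125 were lower and 1 higher, and in ku70 8 of 137 were lower and 6 higher. Over all genes the replicates gave 364 lower and 211 higher of 12028 in DJ, and 618 and 675 of 11860 in ku70. With the floor set on DJ, 7 of 125 were lower and 4 higher in the pair, beside 2.29% and 3.81% of 13822 genes. OsLEA3-1 (Os05g0542500), a late embryogenesis abundant protein made in drying tissue, had 0.706 FPKM (14 reads) in TOP6A3-OE1 atm-2 against 836 reads in TOP6A3-OE1, a difference of -4.36, and had 0 and 3.95 FPKM in DJ. The phosphatase OsPP2C06/OsABI2 (Os01g0583100) had 6.84 FPKM in TOP6A3-OE1 atm-2 and 81.2 FPKM in TOP6A3-OE1, with 37.6 and 53.6 FPKM in DJ. OsABA8OX1 (Os02g0703600), which breaks down abscisic acid, had 20.3 FPKM in TOP6A3-OE1 atm-2 and 0.372 FPKM in TOP6A3-OE1. OsLEA3-1 and OsABA8OX1 were within the limits of the ku70 replicates and of the 99th percentile. OsLEA3-1 reached 5 FPKM only in TOP6A3-OE1 and OsABA8OX1 only in TOP6A3-OE1 atm-2, which fixed their directions. Of 73 heat shock proteins 4 were lower (5.48%) and 1 higher (1.37%). Between the DJ replicates 1 of 69 passed each way, and between the ku70 replicates 5 of 76 were lower and 3 higher. With the floor set on DJ, 3 of 69 were lower and 1 higher in the pair. OsHsp17.3, described next, reached 5 FPKM only in TOP6A3-OE1, so it had to be below 0. OsHsp17.3 (Os03g0266900), a small chaperone, had 0.513 FPKM (6 reads) in TOP6A3-OE1 atm-2 and 86.2 FPKM (1250 reads) in TOP6A3-OE1, but 1.37 and 0 FPKM in DJ. OsJRL (Os01g0348900), the salt-induced lectin, had 25.8 FPKM in TOP6A3-OE1 atm-2 and 1412 FPKM in TOP6A3-OE1, with 0 and 6.71 FPKM in DJ and 187 and 199 FPKM in ku70. For the last of these TOP6A3-OE1 stood above every other library at 40 Gy.

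Other lists are given beside 4.58% higher and 2.84% lower over all genes. These counts use the pair's own floor. With the floor set on DJ, 3 of 33 class III peroxidases were lower and 2 higher. Of 47 genes of cell death and senescence 3 were then lower and 4 higher, beside 2.29% and 3.81% of 13822 genes. Class III peroxidases, which act in the cell wall, had 4 of 38 lower (10.5%) and 2 higher (5.26%) with a median of -0.84, against 2 higher and 4 lower of 33 between the DJ replicates. POX8.1 (Os07g0677100) had 77.4 FPKM in TOP6A3-OE1 atm-2 and 621 FPKM in TOP6A3-OE1 and was listed at 0 in both DJ and both ku70 libraries at 40 Gy. Glutathione S-transferases had 2 of 33 higher (6.06%) and 1 lower (3.03%), beside 1 higher and 3 lower of 33 between the DJ replicates. Genes of cell death and senescence had 4 of 48 each way (8.33%), beside 1 higher and 2 lower of 47 between the DJ replicates, and cell wall expansion had 1 of 29 lower (3.45%). Secondary wall genes had 1 of 22 higher, and none of 14 circadian clock genes passed. Of 176 chloroplast-encoded genes 2 were measured and neither was past the limit. Among the largest rises outside the lists were the metallothionein MTd (Os05g0202800), at 506 FPKM in TOP6A3-OE1 atm-2 and 10.5 FPKM in TOP6A3-OE1, and Os11g0514500, annotated as similar to a receptor kinase, at 236 FPKM in TOP6A3-OE1 atm-2 and 1.05 FPKM in TOP6A3-OE1. DJ at 40 Gy had 14.3 and 4.85 FPKM of MTd and was listed at 0 for Os11g0514500. The latter gene reached 5 FPKM only in TOP6A3-OE1 atm-2, so it had to be above 0.

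**Figure D5:**
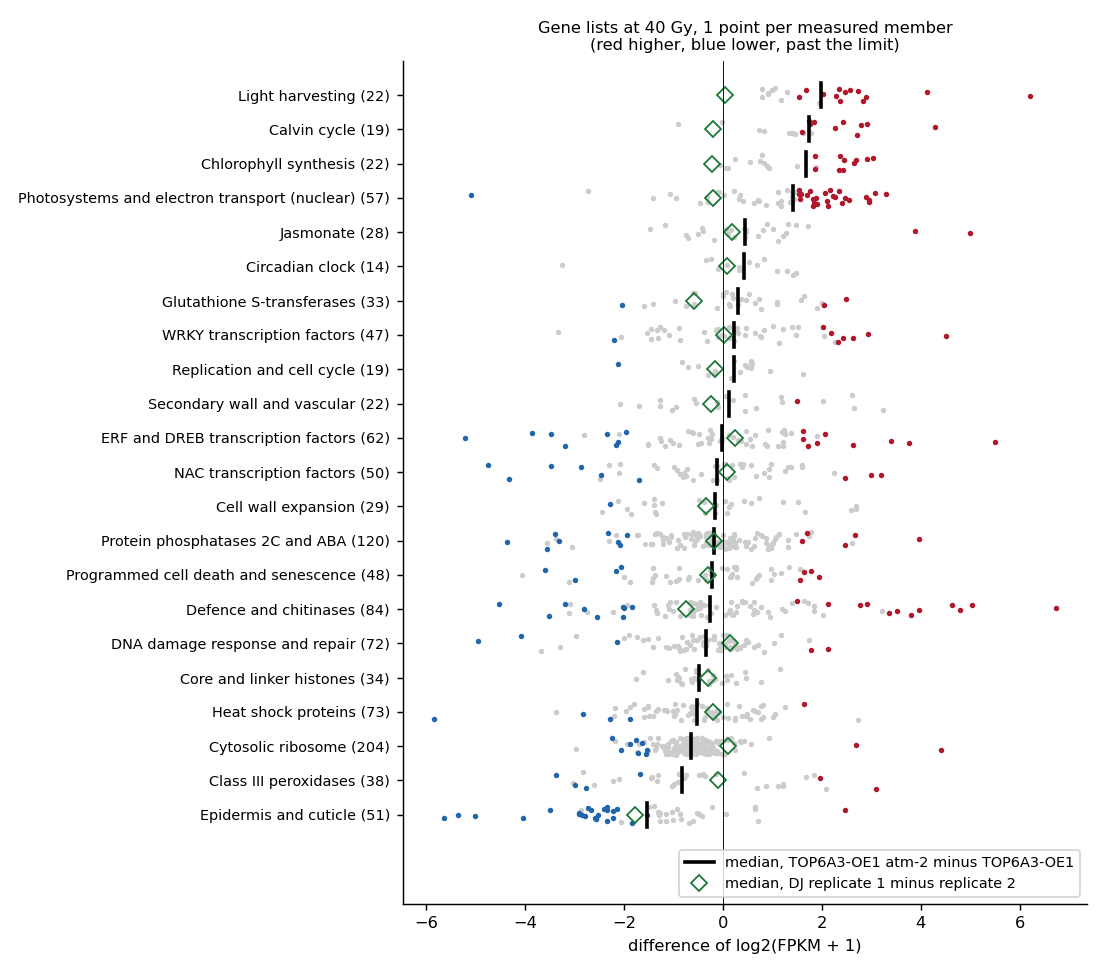
Difference of log2(FPKM + 1), TOP6A3-OE1 atm-2 minus TOP6A3-OE1, for the measured members of 22 gene lists (number in brackets), 1 point per gene, with black bars at list medians and diamonds at the medians of DJ replicate 1 minus replicate 2. At the pair's own floor the 4 photosynthesis lists have medians of 1.41 to 1.98 with DJ diamonds near 0. With the floor set on DJ the lowest of these medians was 0.93, for chlorophyll synthesis. For epidermis and cuticle the bar (-1.53) and the diamond (-1.78) lie side by side.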

How the data were processed

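Strand-specific RNA-seq libraries of rice leaves were analysed from gene tables in FPKM deposited by the authors, with gene length per the file headers. The sources used here name no aligner, counting tool or genome build. FPKM times length were whole multiples of 1 step per column (100% of values within 0.01), which gave the read numbers. A further table by the authors gave log2 fold changes, deposited for 106 genes, used for comparison only.

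The pair was compared as log2(FPKM + 1) without a test, for genes that reached 5 FPKM in either library, against the 95th percentile of DJ replicate differences in 10 level bins. Single libraries have no replicate error. At 70 Gy, limma 3.58.1 (R 4.3.3, trend, two-sided, Benjamini-Hochberg over all genes) was fitted over 20 libraries to genes that reached 1 FPKM in 2 or more of them, with 10 residual degrees of freedom; 8 of them (atr, top6a3, TOP6A3 and the cold-treated libraries) only shared in the spread and the filter. Both procedures were tested on simulated data. Replicates are not stated to be separate plants, so these p-values measure the spread between libraries, which may be technical.

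Members and 23 lists were chosen with earlier results of these data known; 488 entries were then dropped where the description contradicted the list. Named genes were those of the line labels, genes of an earlier description, up to 4 per list with the largest differences past the limit, the 10 largest rises and falls at 20 FPKM or more, and the 12 lowest in atm-1, of which a part is printed. A planned promoter search was not run, as no sequences were used here. Python 3.11.15, pandas 2.3.3, numpy 2.4.6 and matplotlib 3.10.9 were used.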

Additional observations from a re-analysis of the deposited data

How the results depend on the processing

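The pair's 1068 genes past the limit became 322 (184 higher, 138 lower) at the 99th percentile of DJ replicate differences, and list members past it went down to 87, against 195. The other settings (pseudocount, floor, scaling, ku70 noise, a difference of 2) kept the count between 713 and 1179; 2 settings chosen after seeing the data, more than 10 reads in both libraries and a floor set on DJ, gave 1008 and 866. TMM scaling moved the overall median difference to 0.06. The genes lower at both doses numbered 6 at a floor of 20 FPKM and 5 at the 99th percentile, against 13, with fewer genes measured at that floor and a higher limit by construction; without 1 of the 70 Gy libraries they numbered 7 to 11, and without atm-1 untreated replicate 1 (chosen after seeing the data) 18. Calls at 70 Gy ranged from 54 to 98 without 1 of those libraries, 59 to 75 under another pseudocount, filter, voom or the 6 libraries alone, and were 180 without atm-1 untreated replicate 1. With a replicate block in those 6 libraries 0 genes were called; same-numbered libraries did not deviate together (r = -0.0112, -0.0744 and -0.0362), so the numbers do not pair them. Of 517 values of named genes under other settings 496 moved by less than the replicate spread, 21 by more, and 0 changed sign past the limit. Low read numbers limit genes near the floor.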

Other observations

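Some genes well expressed in both libraries of the pair were listed at 0 in all 4 other 40 Gy libraries. PsbR had 17044 reads in TOP6A3-OE1 atm-2 and 2500 reads in TOP6A3-OE1, and POX8.1 had 1508 reads in TOP6A3-OE1 atm-2 and 15005 reads in TOP6A3-OE1. Over the 14397 measured genes, 1342 and 1298 were listed at 0 in the DJ libraries and 2852 and 2785 in the ku70 libraries at 40 Gy. Those genes were chosen by their level in the pair, so more zeros elsewhere follow at least in part from the floor. Without that choice, genes detected at 40 Gy were 26228 in TOP6A3-OE1 atm-2 and 22916 in TOP6A3-OE1. DJ had 18859 and 19109, and ku70 had 15067 and 15005.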
